A study of Capra hircus with 40 samples.

Results

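The 6 genes of the goat uterus described here are PPM1E (NCBI gene 102189429), KAZN (102175785), KANK4 (102187732), LUZP2 (102184037), CHST9 (102185619) and JAKMIP2 (102172352). They are 6 of the 30049 genes in the deposited count table, all 6 with counts high enough to be tested in both organs, and were picked on a fall after day 1 in the uterus libraries of this same data set. Their levels and age differences in the uterus are therefore given as a description, with no test. Female Jining gray goats of 1 farm, with no treatment named, gave whole uterus and whole ovary at day 1 and at months 2, 4 and 6 after birth. Bulk RNA was sequenced in 5 libraries for each of the 8 groups (uterus and ovary, each at day 1, month 2, month 4 and month 6), 40 in all. Each library is labelled as an individual, and nothing else about the animals is given, so p-values measure the spread between these libraries. Bulk tissue does not separate fewer cells of a type from less RNA per cell.

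The 6 genes belong to unrelated families. PPM1E is a serine/threonine phosphatase that removes phosphate from calmodulin-dependent kinases and from p21-activated kinases. KAZN encodes kazrin, a cytoplasmic protein that binds the desmosomal plaque protein periplakin in epidermal cells. KANK4 is a member of the ankyrin-repeat KANK adaptors, which link focal adhesions to cortical microtubules. CHST9 is a Golgi sulfotransferase that adds sulfate to terminal N-acetylgalactosamine on glycoproteins. JAKMIP2 is a coiled-coil protein related to JAKMIP1, which binds Janus kinases and microtubules. LUZP2 encodes a leucine zipper protein described mainly in the nervous system of the mouse. HOXA13, against which the 6 genes are set below, is a homeobox transcription factor of the caudal reproductive tract: in the mouse, HOXA10 and HOXA11 mark the uterus and HOXA13 the presumptive vagina.

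The libraries held between 31.9 and 62.7 M counts each, and the median library 51.3 M. Levels are given as CPM, the share of a library's TMM-scaled total in counts per 1 M, which does not correct for gene length, so levels are compared between groups and not between genes. A pair of libraries stood apart from their labels. Uterus month 4 library 5 held 9.41 CPM of EPCAM, an epithelial adhesion gene, where the other uterus libraries held 89.4 or more, and 11472 CPM of the elastin gene ELN, where the others held 134 or less. Ovary day 1 library 3 held 0.0809 CPM of FSHR, the follicle-stimulating hormone receptor, where the other ovary libraries held 2.87 or more, and 1827 CPM of the fat cell gene ADIPOQ, where the others held 0.957 or less. Some of the values that either library moved are given with and without it.

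PPM1E was at 31.4, 50.6, 34.1, 44.5 and 36.1 CPM in the 5 uterus libraries of day 1 and at 16.3, 14.0, 12.8, 12.3 and 24.2 CPM at month 2. It was at 8.68, 12.2, 10.4, 8.95 and 7.12 CPM at month 4 and at 10.7, 10.1, 15.3, 5.82 and 13.2 CPM at month 6. Every library of every later age lay below every day 1 library, and months 4 and 6 overlapped. PPM1E was the only member of the 6 whose month 2 libraries all lay below day 1. Its log2 fold change was -1.33 ± 0.24 (SE) at month 2 against day 1, -2.09 ± 0.25 at month 4 and -1.86 ± 0.25 at month 6.

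KAZN was at 43.9, 45.1, 26.3, 28.0 and 37.2 CPM in the uterus at day 1, and at 28.2, 23.7, 27.2, 25.5 and 31.8 CPM at month 2. It was at 18.7, 21.0, 16.9, 15.5 and 13.1 CPM at month 4 and at 11.2, 12.8, 16.1, 15.3 and 19.4 CPM at month 6. Day 1 and month 2 overlapped, whereas all 10 libraries of months 4 and 6 lay below all 10 of the earlier ages. KAZN had the smallest log2 fold change of the 6 at month 6 against day 1, -1.29 ± 0.18, and was at -0.43 ± 0.18 at month 2.

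KANK4 was at 14.7, 16.0, 10.3, 12.6 and 6.09 CPM in the uterus at day 1 and at 7.58, 5.88, 7.32, 2.21 and 5.05 CPM at month 2. It was at 2.10, 3.14, 2.48, 2.27 and 6.97 CPM at month 4 and at 2.45, 0.967, 0.530, 1.88 and 2.20 CPM at month 6. The overlap of month 4 with day 1 rested on month 4 library 5, the library that stood apart. The log2 fold change at month 4 against day 1 was -1.83 ± 0.44, and -2.29 without that library. KANK4 stood at -2.91 ± 0.46 at month 6 against day 1, and its mean was lower at each of the 3 steps.

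LUZP2 was at 9.96, 11.7, 31.3, 15.3 and 19.5 CPM in the uterus at day 1 and at 13.1, 1.52, 2.80, 0.431 and 1.20 CPM at month 2. It was at 0.472, 0.602, 0.664, 0.537 and 1.42 CPM at month 4 and at 0, 0.541, 1.13, 0.680 and 0.555 CPM at month 6. The month 6 library at 0 held 0 counts, which allows up to 0.0494 CPM by a limit of 3 counts that covers counting error only. Month 2 overlapped with day 1 through library 1 alone, and months 4 and 6 shared 1 range. The log2 fold change was -2.25 ± 0.83 at month 2 against day 1, and -3.60 without that library, -4.60 ± 0.93 at month 4 and -4.94 ± 0.94 at month 6.

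CHST9 was at 7.34, 5.55, 20.8, 6.31 and 14.3 CPM in the uterus at day 1 and at 9.38, 0.414, 1.54, 0.118 and 0.497 CPM at month 2. It was at 0.561, 0.563, 0.295, 0.0398 and 0.0724 CPM at month 4 and at 0.395, 0.348, 0.354, 0.440 and 0.123 CPM at month 6. The same month 2 library 1 alone reached into the day 1 range, and the other 4 lay far below it. The log2 fold change at month 2 against day 1 was -2.23 ± 0.89 with that library and -4.11 without it. At month 4 against day 1 it was -5.21 ± 1.03 and at month 6 -5.06 ± 1.02.

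JAKMIP2 was at 15.7, 12.4, 73.4, 12.5 and 159 CPM in the uterus at day 1 and at 73.3, 7.92, 7.66, 1.61 and 8.16 CPM at month 2. It was at 11.1, 3.03, 1.43, 0.935 and 0.748 CPM at month 4 and at 0.412, 0.0967, 1.71, 1.04 and 3.72 CPM at month 6. Libraries 3 and 5 of day 1 and library 1 of month 2 stood far above the rest of their groups, which gave JAKMIP2 the widest spread of the 6, with a mean of 54.7 ± 64.1 CPM (SD, n = 5) at day 1. Every month 4 and month 6 library lay below every day 1 library. The log2 fold change was -1.53 ± 1.05 at month 2 against day 1, -4.07 ± 1.17 at month 4 and -5.33 ± 1.24 at month 6. The first of these was -3.17 without month 2 library 1 and -0.57 without day 1 library 5.

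**Figure D1:**
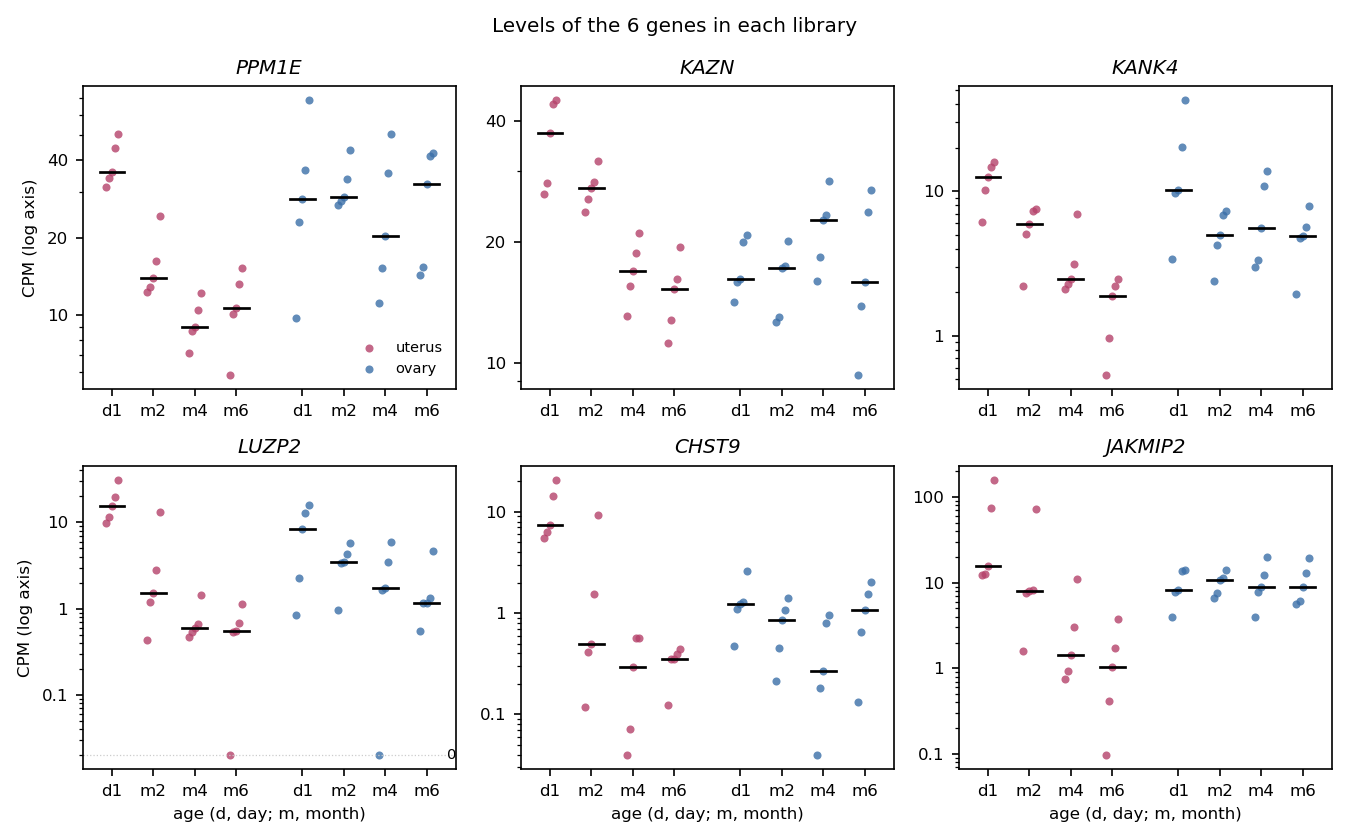
CPM of each of the 6 genes in every library on a log axis, with the uterus left and the ovary right and ages from day 1 (d1) to month 6 (m6). Points are libraries, bars are medians of 5, and libraries at 0 lie on the dotted line; in the uterus month 6 lay below day 1 without overlap for 6 of 6 genes, as they were picked to, where 2.05% of all genes did, and in the ovary for 0 of 6, where 1.08% did.

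The label of a steady fall held for the first 2 steps and only in part for the last. All 6 members had lower estimates at month 2 against day 1 and at month 4 against month 2, with median log2 fold changes of -1.43 and -1.56. At month 6 against month 4, 4 were lower, from KANK4 at -1.07 ± 0.44 and JAKMIP2 at -1.26 ± 1.07 to KAZN at -0.17 ± 0.18, with LUZP2 at -0.34 ± 0.83. PPM1E at 0.23 ± 0.24 and CHST9 at 0.15 ± 0.91 were higher, each by no more than its SE. These steps leaned on single libraries. Without month 2 library 1, the log2 fold change at month 4 against month 2 was -1.01 for LUZP2, against -2.36 with it, -1.10 for CHST9, against -2.98, and -0.91 for JAKMIP2, against -2.54. At month 6 against month 4, KANK4 was at -0.62 without month 4 library 5. LUZP2 was at 0.05 without month 4 library 5, at -0.01 without month 6 library 1 and at -0.73 without month 6 library 3. CHST9 was at -0.14 without month 4 library 4 and at 0.51 without month 4 library 2. JAKMIP2 was at -0.12 without month 4 library 1 and at -2.04 without month 6 library 5. The difference in LUZP2 and CHST9 thus lay almost wholly between day 1 and month 4.

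Counted by the threshold used for all genes (adjusted p under 0.05 in edgeR and a log2 fold change of 1 or more in size), 6 of 6 members were lower at month 6 against day 1, where 0.756% of 18789 genes were. At month 4 against day 1 it was 5 of 6, all but JAKMIP2, where 1.69% of genes were lower. At month 2 against day 1 it was 0 of 6, where 0% of genes were lower; there 2320 genes had an unadjusted p under 0.05, and DESeq2 called 273 genes, of the 6 only PPM1E. These counts follow from how the genes were picked. All later libraries lay below all day 1 libraries for 1 member at month 2, 5 at month 4 and 6 at month 6, where 1.80%, 2.51% and 2.05% of all genes did so.

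In the ovary, whose libraries did not enter the choice, none of the 6 genes passed the test between any 2 ages, where 0.00508% of genes were called at month 2 and 0.00508% at month 4 against day 1 and 0% between the later ages. At month 6 against day 1, 0 of 6 were called in edgeR's quasi-likelihood test, where 0.0763% of 19671 genes were called in either direction and 2804 had an unadjusted p under 0.05. At month 6 PPM1E averaged 29.3 ± 13.8 CPM (SD, n = 5), against 33.3 ± 22.1 at day 1 (log2 fold change -0.17 ± 0.47 SE, edgeR adjusted p = 0.915). KAZN averaged 17.9 ± 7.23 CPM at month 6 and 17.4 ± 2.85 at day 1 (0.08 ± 0.25, edgeR adjusted p = 0.932). JAKMIP2, the most variable member in the uterus, averaged 10.5 ± 5.71 CPM at month 6 and 9.57 ± 4.30 at day 1 (0.17 ± 0.43, edgeR adjusted p = 0.906). For these 3 genes the ovary estimates were within their SE of 0, and the sign of each turned when single ovary libraries were left out.

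KANK4 and LUZP2 had lower ovary estimates at month 6 that did not pass. KANK4 was at 4.94, 5.68, 1.93, 7.92 and 4.77 CPM in the ovary at month 6, against 43.0, 20.1, 9.76, 3.42 and 10.2 CPM at day 1. No member's month 6 libraries all lay below its day 1 libraries in the ovary, where those of 1.08% of genes did. For KANK4 all but day 1 library 4 lay above all of month 6, and the log2 fold change was -1.73 ± 0.58 (edgeR unadjusted p = 0.00802, adjusted p = 0.203); DESeq2 gave an adjusted p = 0.0453 and edgeR under the other settings from 0.0819 to 0.425. LUZP2 was at 1.18, 4.64, 0.555, 1.15 and 1.32 CPM in the ovary at month 6, against 8.49, 12.7, 0.849, 2.24 and 15.8 CPM at day 1. The groups overlapped, and the log2 fold change was -2.11 ± 0.97 (edgeR unadjusted p = 0.0414, adjusted p = 0.328). Without ovary day 1 library 3, which stood apart, KANK4 was at -1.88 and LUZP2 at -2.40, and neither was called. Without ovary day 1 library 1 KANK4 was at -1.04. CHST9 averaged 1.08 ± 0.745 CPM in the ovary at month 6 and 1.34 ± 0.779 at day 1 (-0.25 ± 0.74, edgeR adjusted p = 0.923), an estimate of 0.13 without that library. Whether the age change differed between the organs was not tested.

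**Figure D2:**
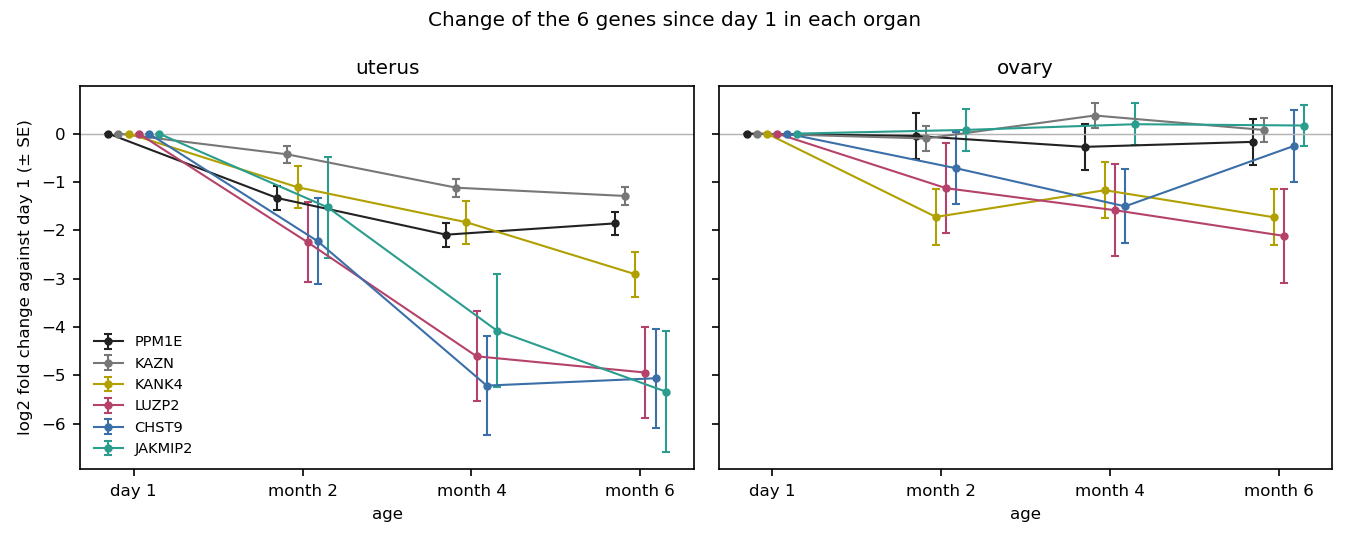
Log2 fold change of the 6 genes at months 2, 4 and 6 against day 1, with the uterus left and the ovary right; points are edgeR estimates and bars their SE, and day 1 is 0 by definition. At month 6 the 6 uterus estimates ran from -5.33 to -1.29 and the 6 ovary estimates from -2.11 to 0.17.

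The organs are set side by side as a description: the genes were picked on the uterus values used here, so the direction of each difference is in part that choice. At day 1 the uterus was above the ovary for 5 of 6 genes, with log2 differences of 3.01 ± 0.88 for CHST9, 2.52 ± 0.86 for JAKMIP2, 1.13 ± 0.90 for LUZP2, 1.06 ± 0.22 for KAZN and 0.24 ± 0.38 for PPM1E. KANK4 was the exception at -0.53 ± 0.51, and at 0.14 without ovary day 1 library 1. Without ovary day 1 library 3, which stood apart, the difference was 0.0079 for PPM1E and from -0.68 for KANK4 to 3.40 for CHST9 among the other 5, while without ovary day 1 library 4 PPM1E was at 0.69. JAKMIP2 was at 1.58 without uterus day 1 library 5. At month 6 the uterus was below the ovary for 6 of 6, from -2.92 ± 0.89 for JAKMIP2 to -0.26 ± 0.22 for KAZN. At month 2 CHST9 was at 1.57 ± 0.84, JAKMIP2 at 0.97 ± 0.83 and LUZP2 at 0.09 ± 0.89. Without uterus month 2 library 1 these were -0.31, -0.67 and -1.26. Uterus day 1 had the highest median of the 8 groups for each of the 6 genes, which were picked for high values there. In the order of the 8 medians, neighbouring groups overlapped for all 6 genes, with the exception of uterus day 1 and ovary day 1 for CHST9. Of the 6 genes, CHST9 and KAZN had every uterus day 1 library above every ovary day 1 library, where 3.65% of 20518 genes did so. KAZN was at 26.3 CPM or more in the uterus and at 20.8 CPM or less in the ovary at day 1.

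HOXA13 was at 1.67 CPM or less in every uterus library of months 4 and 6 and was uneven within the younger ages. It was at 26.6, 4.18, 120.4, 0.609 and 137.6 CPM at day 1 and at 109.1, 0.338, 44.6, 4.35 and 5.32 CPM at month 2. It was at 0.0886, 0.252, 1.11, 0.736 and 0.241 CPM at month 4 and at 0.0494, 0.174, 0.477, 0.880 and 1.67 CPM at month 6. Thus 5 of the 20 libraries (day 1 libraries 1, 3 and 5 and month 2 libraries 1 and 3) were at 26.6 CPM or more and the other 15 at 5.32 or less. In the ovary HOXA13 was highest in day 1 library 3, at 37.5 CPM, with the other ovary libraries at 3.55 or less.

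Within an age, HOXA13 and the 6 genes were related unequally, and no relation passed the test over all genes. A fit of age group plus log2 CPM of HOXA13 gave slopes, in log2 units per log2 unit of HOXA13, of 0.37 ± 0.13 (SE) for JAKMIP2, 0.30 ± 0.12 for CHST9 and 0.25 ± 0.11 for LUZP2. Their edgeR unadjusted p values were 0.0122, 0.0248 and 0.0276, and their adjusted p values 0.703, 0.762 and 0.764. Without month 2 library 1 the slope was 0.15 for CHST9 and 0.14 for LUZP2. The slopes of KAZN (0.03 ± 0.03), KANK4 (-0.01 ± 0.07) and PPM1E (-0.02 ± 0.04) had edgeR adjusted p values from 0.856 to 0.987. Over all 18788 genes 0% were called, 1199 had an unadjusted p under 0.05, and DESeq2 called 56, none of the 6.

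The correlations of age-centred log2 CPM with HOXA13 over the 20 uterus libraries, 6 in number, gave the same division. LUZP2 had r = 0.527 (two-sided permutation within ages, p = 0.0216) and rho = 0.586 (permutation p = 0.0112). Its lowest age-centred value, -3.38, was in month 6 library 1, which held 0 counts of LUZP2 and had HOXA13 at -2.30. Its highest, 2.69, was in month 2 library 1, with HOXA13 at 3.69. The correlation of LUZP2 without either library was not computed, so how far it rests on them is not known. JAKMIP2 had r = 0.522 (permutation p = 0.0371) and rho = 0.535 (permutation p = 0.0287), and CHST9 r = 0.449 (permutation p = 0.101) and rho = 0.415 (permutation p = 0.0815). KAZN had r = 0.291 and rho = 0.221, PPM1E r = -0.120 and rho = -0.0962, and KANK4 r = -0.0376 and rho = 0.0150 (permutation p from 0.261 to 0.953). Day 1 libraries 5 and 3 were the 2 farthest from the median HOXA13. Without them r was 0.504 for LUZP2 (permutation p = 0.0712), 0.361 for JAKMIP2 (permutation p = 0.202) and 0.365 for CHST9 (permutation p = 0.303), each lower than with them. KAZN, by contrast, had r = 0.529 (permutation p = 0.0261) and rho = 0.501 (permutation p = 0.0566) without them, against r = 0.291 with them. The permutation p values given here and for parts of the age range were not adjusted for the number of genes, measures and sets of libraries.

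The relations were also taken within parts of the age range, with no test of the difference between parts. Over the 10 libraries of day 1 and month 2, CHST9 had r = 0.707 (exact permutation p = 0.0207), JAKMIP2 r = 0.690 (exact permutation p = 0.0389) and LUZP2 r = 0.571 (exact permutation p = 0.0899). Over the 10 of months 4 and 6, where HOXA13 did not exceed 1.67 CPM, CHST9 had r = -0.442 (exact permutation p = 0.174), JAKMIP2 r = 0.217 (exact permutation p = 0.587) and LUZP2 r = 0.565 (exact permutation p = 0.155). The value of LUZP2 there includes month 6 library 1, with 0 counts of LUZP2. Among the 15 libraries with HOXA13 under 10 CPM, r was -0.398 for CHST9, 0.0679 for JAKMIP2 and 0.288 for LUZP2 (exact permutation p from 0.149 to 0.829), while KAZN had r = 0.627 (exact permutation p = 0.0364). The 5 libraries with more HOXA13 were too few for a correlation of their own.

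**Figure D3:**
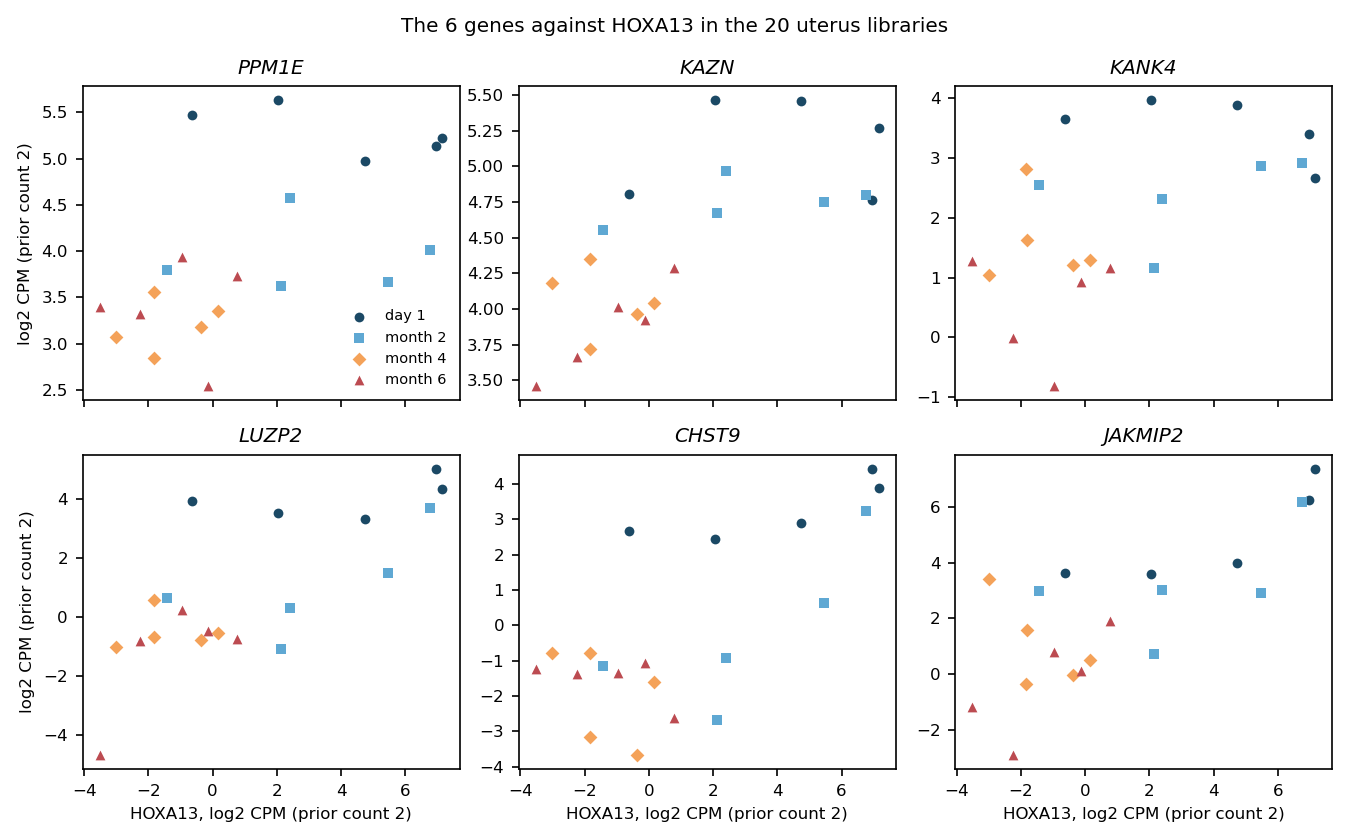
Log2 CPM of each of the 6 genes (y) against log2 CPM of HOXA13 (x) in the 20 uterus libraries, coloured by age. LUZP2, CHST9 and JAKMIP2 were highest in libraries at the right, whereas PPM1E and KANK4 were split by age with slopes near 0 within ages.

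The age differences of the 6 genes were also set against HOXA13 directly. With HOXA13 as a covariate, the log2 fold change at month 6 against day 1 was -1.94 ± 0.30 for PPM1E, -1.13 ± 0.23 for KAZN and -2.95 ± 0.55 for KANK4, against -1.86, -1.29 and -2.91 without it. For LUZP2 it was -3.74 ± 0.85, against -4.94, for CHST9 -3.25 ± 0.96, against -5.06, and for JAKMIP2 -3.10 ± 1.09, against -5.33. At month 4 against day 1, JAKMIP2 was at -1.08 ± 1.22 with the covariate and -4.07 without it. All 6 estimates stayed negative at both ages. HOXA13 itself differed with age, at 1.67 CPM or less in every library of months 4 and 6. The covariate fit used a common slope for all ages, whereas the slope of CHST9 turned negative within months 4 and 6. The part of each fall that goes with HOXA13 therefore cannot be told apart from age. Of the 6, 1 (PPM1E) was past the threshold with the covariate at month 6, as were 2 of the 18789 genes tested, where the counts had been 6 and 266. As the members were picked on these libraries, their count is a description and no test.

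In the 15 uterus libraries with HOXA13 under 10 CPM, which leaves 2 libraries at day 1 and 3 at month 2, the log2 fold changes at month 6 against day 1 were -2.10 ± 0.32 for PPM1E, -1.28 ± 0.25 for KAZN, -3.15 ± 0.57 for KANK4, -4.52 ± 0.92 for LUZP2, -4.15 ± 0.78 for CHST9 and -3.14 ± 1.07 for JAKMIP2. This set was chosen after the levels were seen. PPM1E was again the 1 member past the threshold, among 10 of all genes. This too is no test of the members, which were picked on a fall in these libraries. Day 1 library 4, at 0.609 CPM of HOXA13, was the only day 1 library inside the HOXA13 range of months 4 and 6. It held PPM1E at 44.5, KAZN at 28.0, KANK4 at 12.6, LUZP2 at 15.3, CHST9 at 6.31 and JAKMIP2 at 12.5 CPM. These values are given as levels only, since genes picked for a fall after day 1 had to have day 1 libraries above the later ones.

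**Figure D4:**
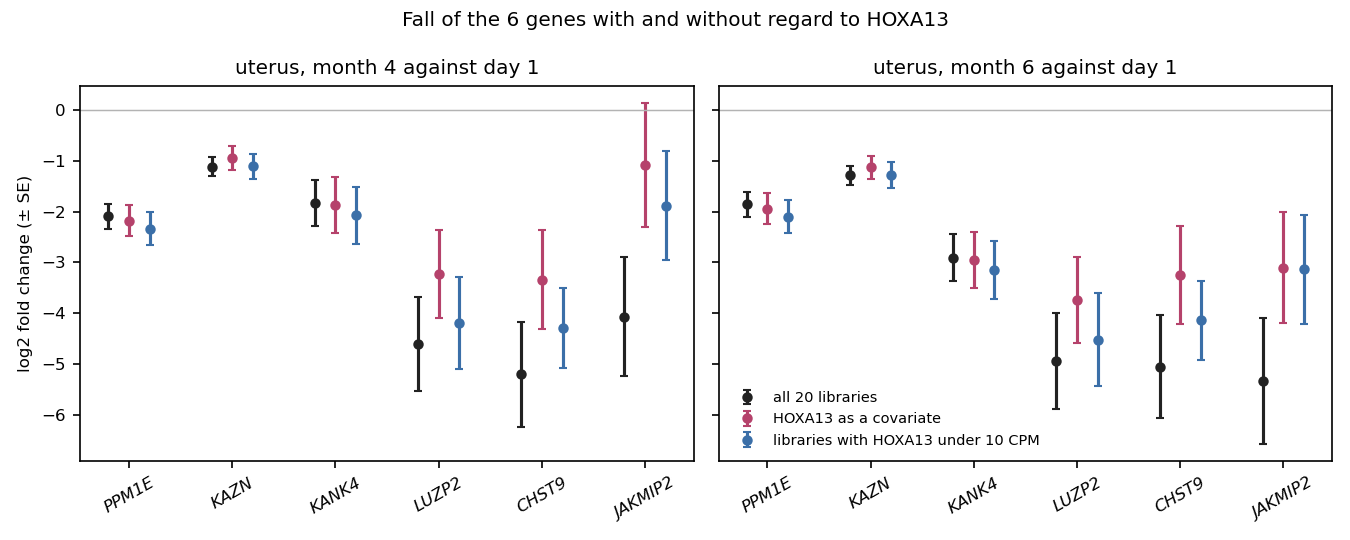
Log2 fold change in the uterus at month 4 (left) and month 6 (right) against day 1 for each gene, with SE bars, in all 20 libraries, with HOXA13 as a covariate and in the libraries with HOXA13 under 10 CPM. The 3 estimates of PPM1E at month 6 lay between -2.10 and -1.86, and those of JAKMIP2 between -5.33 and -3.10.

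Among themselves the genes divided in the same way. The correlations of log2 CPM between members over the 20 uterus libraries ran from 0.659 to 0.841 over 15 pairs, as follows from the shared age difference they were picked for. After centring on age, CHST9 and JAKMIP2 had r = 0.647, LUZP2 and JAKMIP2 r = 0.490 and LUZP2 and CHST9 r = 0.489. KAZN had r = 0.373 with JAKMIP2 and r = 0.355 with PPM1E, and the other 10 pairs lay between -0.189 and 0.166. Library 1 of month 2 was the highest of its group for LUZP2, CHST9, JAKMIP2 and HOXA13, and these pairs share it.

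**Figure D5:**
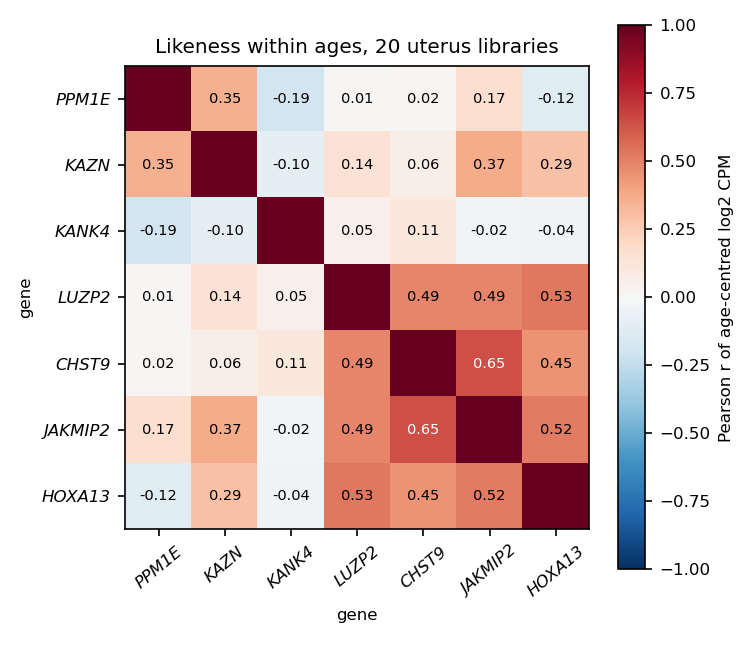
Pearson r of age-centred log2 CPM between the 6 genes and HOXA13 over the 20 uterus libraries, as a colour scale with the value in each cell. LUZP2, CHST9, JAKMIP2 and HOXA13 form the block of higher values, from 0.449 to 0.647.

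The genes whose level over the 20 uterus libraries was most like the mean of the 6 standardized profiles were RAB27B, a small GTPase of vesicle release (r = 0.952), KCNJ12, an inward rectifier potassium channel (r = 0.904), EMILIN3, an extracellular matrix glycoprotein (r = 0.903), LRRC66 (r = 0.895) and ST6GALNAC5, a sialyltransferase (r = 0.892). For single members the nearest genes were MKRN1 for PPM1E (r = 0.929), EMILIN3 for KAZN (r = 0.912), SGCB, a sarcoglycan, for KANK4 (r = 0.887), RAB27B for LUZP2 (r = 0.900), GOLM1, a Golgi membrane protein, for CHST9 (r = 0.919) and KCTD1 for JAKMIP2 (r = 0.926).

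Genes tied to the members by family or partner mostly did not pass in the uterus at month 6 against day 1, where 1.42% of all genes were called in either direction and the median log2 fold change of all genes was 0.0128. Of 15 relatives and substrates of PPM1E, such as calmodulin-dependent and p21-activated kinases, 0 were called, with a median of -0.0196 and a range from -0.84 to 1.62. Of 9 KANK relatives and cortical partners 0 were called (median 0.192), of 7 genes of GalNAc sulfation 0 (median -0.0831) and of 5 JAKMIP relatives and partners 0 (median 0.229). In edgeR 3257 of all genes had an unadjusted p under 0.05 in this comparison.

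The list of desmosome and envelope genes near KAZN was the exception, with 2 of 11 lower and a median of -0.605. DSC3, a desmosomal cadherin, averaged 0.967 ± 0.632 CPM at month 6, against 8.97 ± 5.07 at day 1 (SD, n = 5; log2 fold change -3.24 ± 0.66, edgeR adjusted p = 0.0228). DSG3, a desmosomal cadherin of stratified epithelia, averaged 0.257 ± 0.225 CPM at month 6 and 9.12 ± 6.72 at day 1 (-5.14 ± 1.15, edgeR adjusted p = 0.0325). The call of DSC3 was lost without day 1 library 3 or month 6 library 4 (edgeR adjusted p up to 0.0554), and that of DSG3 without 7 of the 20 libraries in turn (edgeR adjusted p up to 0.0655). With HOXA13 as a covariate DSC3 was at -1.46 (edgeR adjusted p = 0.468) and DSG3 at -4.04 (edgeR adjusted p = 0.313). Of the 11, 10 had negative estimates. DSG3 is also in the squamous list. In the ovary 0 of 10 tested genes of the list passed (median 0.0533), among them DSC3 at -2.76 ± 1.03 (edgeR adjusted p = 0.236), and DSG3 had too few counts there to be tested.

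Of the 8 HOX genes listed, HOXA13 was lower at month 6 against day 1 (-6.53 ± 1.56, edgeR adjusted p = 0.0412) and 7 did not pass, among them HOXA10 at -0.26 ± 0.53 and HOXA11 at -0.77 ± 0.60. The fetal growth list had 3 of 8 lower, with a median of -1.54: IGF2BP3 (-1.84 ± 0.39, edgeR adjusted p = 0.0262), IGF2 (-1.53 ± 0.35, edgeR adjusted p = 0.0356) and IGF2BP2 (-1.16 ± 0.28, edgeR adjusted p = 0.0432), with IGF2 a fetal growth factor and the IGF2BP genes encoding fetal RNA-binding proteins. The call of HOXA13 was lost without 12 of the 20 libraries left out in turn (edgeR adjusted p up to 0.106), that of IGF2BP2 also without 12 (edgeR adjusted p up to 0.0979), that of IGF2 without 7 (edgeR adjusted p up to 0.093) and that of IGF2BP3 without 5 (edgeR adjusted p up to 0.068). Cell cycle genes had negative estimates in 14 of 14, with a median of -1.60, and 0 passed. Smooth muscle genes had positive estimates in 10 of 10, with a median of 0.70, and 0 passed.

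The summed levels of 13 cell type lists are given for the day 1 libraries with more and with less HOXA13, with no test in a split of 3 libraries against 2. For 5 lists the ranges were apart and for 8 they overlapped. The share of all genes apart in such a split was not computed, so these counts have no background. The stroma list summed to between 17030 and 22845 CPM in the 3 libraries with more HOXA13, against 14103 and 14802 CPM in the other 2. At month 2 it summed to 12377 and 23421 CPM in the 2 libraries with more HOXA13, around the 15654 to 16762 CPM of the other 3. Within ages 7 of its 10 HOXA13 slopes were negative, with a median of -0.0263 and 0 called. At day 1 the urinary bladder list summed to between 60.0 and 166 CPM with more HOXA13, against 176 and 245 CPM with less. The elastic fibre list summed to between 446 and 561 CPM, against 578 and 688 CPM. The squamous list and the neuron and Schwann cell list were the other 2 apart. Of 9 listed squamous and vaginal epithelium genes 6 were found in the table, and all 6 had counts at day 1. Their summed level at day 1 was 84.2, 42.3 and 52.8 CPM in libraries 1, 3 and 5, which had HOXA13 at 26.6 CPM or more, against 24.2 and 3.72 CPM in libraries 2 and 4. TP63, the regulator of stratified epithelium, was at 10.5, 10.4 and 18.7 CPM in those 3 libraries, against 0.439 and 0.135 CPM in the other 2. Over all 20 uterus libraries the members of this list had unequal HOXA13 slopes within ages, none called, of 0.62 ± 0.25 for TP63, 0.33 ± 0.28 for SBSN, 0.21 ± 0.17 for DSG3 and -0.10 ± 0.30 for KRT5. At month 2 the sum was 6.67 and 5.63 CPM in the libraries 1 and 3 with more HOXA13, against 1.43, 6.23 and 4.89 CPM in the others, so the ranges overlapped. At month 4 the sum ran from 3.52 to 23.4 CPM, with KRT4 at 0 in every library, and at month 6 from 1.26 to 37.6 CPM.

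The neuron and Schwann cell list, of which 15 of 16 genes were found in the table, summed to 107, 499 and 405 CPM in day 1 libraries 1, 3 and 5 and to 67.5 and 105.5 CPM in libraries 2 and 4. It was thus highest in the 2 day 1 libraries that were highest in JAKMIP2. Within ages its genes were divided, with HOXA13 slopes positive in 9 and negative in 5 of 14 tested, and 0 called. At month 2 the list summed to 228 and 320 CPM in the 2 libraries with more HOXA13, against 102 to 297 CPM in the other 3, so the ranges overlapped. The list summed to between 134 and 365 CPM at month 4 and between 66.2 and 252 CPM at month 6. Of its 14 genes tested at month 6 against day 1, STMN2 was higher (3.74 ± 0.89, edgeR adjusted p = 0.0412), and UCHL1 (-2.13 ± 0.34, edgeR adjusted p = 0.00807) and NEFM (-6.24 ± 1.56, edgeR adjusted p = 0.0494) were lower, NEFM with at most 0.0824 CPM in any month 6 library. UCHL1, a ubiquitin hydrolase of neurons, kept its call without each of the 20 libraries in turn, whereas NEFM, a neurofilament subunit, lost it without 17 (edgeR adjusted p up to 0.132) and STMN2, a tubulin-binding protein of growing neurons, without 13 (edgeR adjusted p up to 0.0909). The smooth muscle list summed to 1323 to 2683 CPM in the 3 day 1 libraries with more HOXA13 and to 2324 and 3050 CPM in the other 2. At month 2 it summed to 1159 and 2131 CPM in the 2 libraries with more HOXA13, against 2332 to 3030 CPM in the other 3, and was the 1 list of the 13 apart at that age. In the within-age fit its HOXA13 slopes were negative in 10 of 10 genes, with a median of -0.154 against -0.00125 over all genes, and 0 were called. Slopes were also negative in 14 of 14 cell cycle genes (median -0.0972) and in 3 of 3 urinary bladder genes (median -0.179), with 0 called. The part of these cell types in the levels of the 6 genes was not tested.

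The other cell type lists held 1 call at month 6 against day 1 in the uterus. Of 8 endothelium genes LYVE1, a hyaluronan receptor of lymphatic vessels, was higher, with a log2 fold change of 1.44 ± 0.32 (edgeR adjusted p = 0.0301), a call lost without 6 of the 20 libraries in turn (edgeR adjusted p up to 0.0744). None were called of 12 uterine epithelium genes (median -0.452), 10 stroma genes (median 0.0859), 8 leukocyte genes (median 1.45), 5 elastic fibre genes (median -0.152), 3 urinary bladder genes (median -0.159), 3 skeletal muscle genes (median 0.502), 4 granulosa and oocyte genes (median -0.87) and 2 adipocyte genes (median -0.257). The uterine epithelium list summed to between 1047 and 2483 CPM at day 1, between 587 and 1094 at month 2, between 84.9 and 799 at month 4 and between 706 and 1469 at month 6. The 84.9 CPM belong to the month 4 library that stood apart. Single ovary libraries reached 1279 CPM at day 1, 374 at month 2, 1300 at month 4 and 1945 at month 6, so the list did not separate the organs in every library.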

How the data were processed

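Total RNA was extracted with TRIzol and sequenced as Illumina libraries, per the labels' protocols. The authors deposited whole-number read counts per gene with no normalization. The submitters' processing notes name RSEM 1.3.0, StringTie 1.3.3b, HISAT2 and fastp 0.23.1, without role or order. Build, annotation, strand setting and the handling of multi-mapping reads were not given in the sources used, so counts of overlapping genes, antisense pairs and close copies are uncertain. Of 30049 rows, 28910 carry an NCBI gene number, all matched to RefSeq symbols of the ARS1.2 assembly for names only, and 1139 are loci without one.

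The quasi-likelihood test of edgeR 4.0.16 (R 4.3.3; robust, TMM scaling, filterByExpr) was run on the counts, the 20 libraries of an organ in 1 fit (18789 uterus and 19671 ovary genes kept) and all 40 for uterus against ovary (20518 genes), with Benjamini-Hochberg adjustment over all genes. A call needed an adjusted p under 0.05 and, for age contrasts, a log2 fold change of 1 or more in size. The scripts were tested on simulated data. HOXA13 entered as log2 CPM with a prior count of 2, and correlations of age-centred log2 CPM used permutations within ages in SciPy 1.17.1 (100000, or all of them where marked exact), two-sided. Depth was 31.9 to 62.7 M counts, and no pair of libraries of 1 group, of 80, agreed within sampling noise (lowest chi-square per degree of freedom 83.5). DESeq2 1.42.0, other scalings and filters, an individual-number block, 2-group fits, HOXA13 as a covariate and fits without each library were the alternatives. Those on libraries with HOXA13 under 10 CPM, on day 1 with month 2 and on month 4 with month 6 were added after seeing the data.

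The members, gene lists and cell type markers were chosen with earlier results of these data known. The genes named are the members, HOXA13, at most 3 called genes of each list, and the most alike genes by Pearson r over the 20 uterus libraries, 5 for the mean of the 6 profiles and 1 for each member. RAB27B and EMILIN3 are named under both parts of that rule. EPCAM, ELN, FSHR, ADIPOQ, HOXA10, HOXA11, TP63, KRT4, KRT5 and SBSN were named after their values were seen.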

Additional observations from a re-analysis of the deposited data

Results flagged for a closer look

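Of 56 groups of 5 libraries looked at, for the 6 genes and HOXA13 in each organ and age, 9 held 1 library whose gap to the nearest of the others took up more of the group's range than the 95% critical value for 5 samples allows. Chance alone flags about 5% of groups where values are normally distributed. CPM was not tested for this, and each flagged library was the highest of its group.

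In uterus month 2, library 1 stood above its group for 3 genes. LUZP2 was at 13.1 CPM there, with the next library at 2.80. CHST9 was at 9.38 CPM, with the next at 1.54, and JAKMIP2 at 73.3 CPM, with the next at 8.16. The same library had the most HOXA13 of its group, 109.1 CPM.

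In uterus month 4, library 5, which stood apart in EPCAM and ELN, held KANK4 at 6.97 CPM, with the next library at 3.14, and LUZP2 at 1.42 CPM, with the next at 0.664. Library 1 of the same group held JAKMIP2 at 11.1 CPM, with the next at 3.03. HOXA13 was at 0.0886 CPM in that library, the lowest of its group.

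In the ovary, month 6 library 2 held LUZP2 at 4.64 CPM, with the next library at 1.32. HOXA13 was at 37.5 CPM in day 1 library 3, the library with ADIPOQ at 1827 CPM, with the next at 3.55. In month 4 library 2 HOXA13 was at 1.49 CPM, with the next at 0.483. The part of tissue content in these values was not tested.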

How the results depend on the processing

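Of 3780 alternative values of fold changes, slopes and counts, 3412 stayed close to the main value or on its side of the threshold. For month 2 against day 1 in the uterus, members called lower numbered 1 (PPM1E) under DESeq2, against 0, and from 0 to 1 without single libraries (1 without uterus month 2 library 5, month 4 library 5 or month 6 library 4). For month 4 against day 1 it was 1 with HOXA13 as a covariate and 1 in libraries with HOXA13 under 10 CPM, against 5, and 4 to 6 without single libraries. For month 6 against day 1 it was likewise 1 and 1, against 6, and 4 to 6 without single libraries, with CHST9 and JAKMIP2 lost without day 1 library 3 or month 6 library 2. DESeq2 called 2 members (KANK4 and JAKMIP2) for month 6 against month 2, against 0, and 1 (KANK4) for month 6 against day 1 in the ovary, against 0. The cause was not tested.

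The HOXA13 slope turned to 0.0388 for PPM1E and -0.305 for CHST9 in the libraries of months 4 and 6. In those with HOXA13 under 10 CPM it turned to 0.0642 for PPM1E, -0.205 for CHST9 and -0.0179 for JAKMIP2. Without the 2 libraries farthest from the median HOXA13 it turned to 0.0406 for KANK4, and without single libraries it ran from -0.0349 to 0.0193. Without single libraries the ovary estimates at month 6 against day 1 ran from -0.407 to 0.290 for PPM1E, from -0.123 to 0.235 for KAZN, from -0.650 to 0.130 for CHST9 and from -0.183 to 0.345 for JAKMIP2.

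Counts over all genes moved more. At month 4 against day 1 in the uterus, 640 genes were called, against 1639 under DESeq2, 82 in the fit of 2 groups, 5 with HOXA13 as a covariate, 15 under 10 CPM of HOXA13 and 174 to 1061 without single libraries. At month 6 against day 1 it was 266, against 939, 81, 2, 10 and 76 to 496, and at month 2 against day 1 it was 3, against 273, 0, 2, 1 and 1 to 39. In the ovary at month 6 against day 1 it was 15, against 655 under DESeq2, 0 in the fit of 2 groups and 6 to 322 without single libraries, 322 without day 1 library 3. For the HOXA13 slope it was 0, against 56 under DESeq2 and 0 to 5 without single libraries.

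Whether individual numbers pair libraries is not known. Same-numbered libraries deviated together (r over 0.1) in 9 of 30 pairs between uterus ages, 10 of 30 between ovary ages and 7 of 20 between organs. Between organs r ran from -0.244 to 0.431. Libraries with different numbers were not compared, so these counts cannot decide it. The main fits took the libraries as unpaired. With the replicate block, members called lower numbered 4 at month 4 and 6 at month 6 against day 1 in the uterus, and all genes called numbered 314 and 127, with 6 for the ovary at month 6 against day 1. CHST9 below about 0.6 CPM rests on few counts, so its later levels limit its fold changes.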
